A study of Mus musculus with 32 samples.

Results

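Clone B52 is 1 of 5 pre-B-cell clones whose Igκ rearrangement repertoire was sequenced (Igκ VJ-seq) after 48 h of growth without IL-7. It was compared, on each parental allele, with the other 4 clones of the same table (clones 3, 4, 8 and E93). Its members are the 112 counted V segments of 1 library. This library is 1 of 10 VJ-seq samples and 1 of 32 samples in the series. The cells came from the bone marrow of mice with 1 C57BL/6 (B6) and 1 Castaneus (Cast) chromosome set, so that reads could be assigned to the B6 allele or to the Cast allele. The clones were grown with IL-7 on irradiated ST2 feeder cells before its removal, and the labels name no knockout, transgene or other treatment in any of them. A clone is the progeny of 1 cell, and each clone had 1 library, so no p-value was computed. The pre-B pool of the same table, which is no clone, is given beside the clones in places. The tables count only Igκ V segments and hold no marker genes, so that the identity of the cells was not checked here.

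The light chain of the antibody is assembled in pre-B cells by joining a V segment to a J segment. RAG proteins cut at the recombination signal sequence (RSS) next to each segment, which is made of a conserved heptamer, a spacer and a conserved nonamer. V segments of the Igκ locus lie in both orientations and join either by deletion or by inversion of the DNA in between. A cell can rearrange again, joining a V segment further out to a J segment further down. Where this joining is by deletion, the earlier joint is removed. Withdrawal of IL-7 stops the division of cultured pre-B cells and lets the Igκ locus rearrange. In VJ-seq, RNA is reverse transcribed from the constant region, so a read reports the RNA of a rearranged segment. In bulk RNA, fewer cells with a rearrangement and less RNA per cell cannot be told apart.

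The Igkv3 family carried the main difference between clone B52 and the other clones, and its 9 counted segments are the V segments closest to the J segments. In the mm10 genome, the V segments run from chr6:67555497-70704177, on the plus strand or the minus strand, and Igkj1, the first J segment, starts at 70722562. All 9 Igkv3 segments lie within 204 kb of Igkj1, in plus-strand orientation. They are functional V genes in the annotation, coding for the variable part of κ chains. Signals are shown for the 5 most abundant segments of each allele in clone B52, 8 in all, and for the 4 segments called lower in clone B52 by the largest ratios. The sequences were read from the mm10 (GRCm38) genome and give the B6 version. Capitals mark the heptamer and the nonamer, and the spacer is in lower case.
Igkv3-7: CACAGTGctccagggctgaACAAAAACC
Igkv3-12: CACAGTGctccagggctgaACAAAAACC
Igkv3-2: CACAGTGctccagggctgaACAAAAACC
Igkv4-79: CACAGTGaaacagactagaACAAAAACC
Igkv2-137: CACAGTGatacagccctgaACAAAAACC
Igkv16-104: CACAGTGatacaagtcataACAAAAACC
Igkv4-57: CACAGTGctatagactggaACAAAAACC
Igkv19-93: CACAGTGatacaaatcataACAAAAACC
Igkv4-53: CACAGTGatacagactagaACAATAACT
Igkv12-38: CACAGTGattcaagccatgACATAAACC
Igkv8-26: CACAGAGcttcagccgcctACACAAACC
Igkv1-110: CACAGTGatacagaccctaACAAAAATA

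Each of the first 8 of these segments has all 16 bases of the heptamer CACAGTG and the nonamer ACAAAAACC. Of the last 4, which are described further on, Igkv12-38 matches 15 of the 16 bases and the others 14. Among all 17 segments called lower on B6, 1 matched 13 of the bases, 9 matched 14, 6 matched 15 and 1 matched all 16. The signals of Igkv3-7, Igkv3-12 and Igkv3-2 are identical over all 28 bases. They lie at chr6:70608037-70608064, chr6:70518850-70518877 and chr6:70699068-70699095. A total of 8 of the 9 Igkv3 segments share this signal, and Igkv3-9 differs from it in the spacer only. Among the 111 segments found by name in the annotation, 36 (32.4%) had all 16 bases, 95 (85.6%) had the heptamer and 38 (34.2%) had the nonamer. Igkv3 was 9 of these 36. The signal was looked for close to the annotated end of each V exon, on either side of it and on the strand of the segment. The best match was kept. A match to these letters is a description of the B6 sequence, and no Cast sequence was read.

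Clone B52 had 69131 reads, of which 45483 were on the B6 allele and 23648 on the Cast allele. The other clones had 34291 to 165679 reads, with clone E93 the shallowest. A count of 3 reads, the smallest number told from 0 here, were 0.00660% of the B6 reads and 0.0127% of the Cast reads of clone B52. At least 3 reads were found on 90 segments of the B6 allele and 76 segments of the Cast allele in clone B52, against 92 to 101 and 73 to 80 in the other clones. On B6, 65.8% of the reads of clone B52 were counted (95% Wilson interval 65.4 to 66.1). This share lay within the range of the other clones, which had 51.2% in clone 3, 71.8% in clone 4, 62.9% in clone 8 and 53.7% in clone E93. Reads carry no molecular identifiers, so intervals cover counting error only. Clone 4 has a second 48 h library, of 10958 reads, which is the only repeat. Between both libraries of clone 4, 29 of 93 segments (31.2%) differed by 2-fold or more on B6 and 28 of 63 segments (44.4%) on Cast. Clones 4, 8 and the pool stood apart from clones 3, B52 and E93 by 5-fold or more at 1 of 99 segments on B6 (Igkv4-74) and 3 of 80 on Cast (Igkv19-93, Igkv5-45 and Igkv4-69). No label gives a batch, and counts against clones 3 and E93 alone are given beside the main ones. The methods mention 2 lengths of reads and do not tie either to a library, so the part of read length in this grouping was not tested.

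The Igkv3 family took up more of the repertoire in clone B52 than in any other clone on both alleles, by a wider margin on B6. On the B6 allele it made up 42.8% of the reads in clone B52 (95% Wilson interval 42.3 to 43.2), against 17.3% in clone 3, 5.96% in clone 4, 7.85% in clone 8 and 20.5% in clone E93. Clone B52 was thus 2.09-fold above the nearest clone, E93. On the Cast allele the family made up 44.7% in clone B52 (44.1 to 45.4), against 11.5% in clone 3, 0.18% in clone 4, 0.18% in clone 8 and 29.8% in clone E93. Here clone B52 was 1.50-fold above clone E93. The pool had 7.30% on B6 and 8.23% on Cast. In the second library of clone 4 the family had 3.03% on B6 and 0.08% on Cast, so both libraries of that clone were far below clone B52. Taken over the whole library rather than over each allele, Igkv3 on B6 was 28.1% of all reads of clone B52, against 4.28 to 11.0% in the other clones. Igkv3 on Cast was 15.3%, against 0.0495 to 13.8%, so that on this scale clone B52 was only 1.11-fold above clone E93.

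Igkv3-7 was the most abundant segment of clone B52 on both alleles. On B6 it had 16.2% (7367 reads) in clone B52, 6.18% in clone 3, 1.66% in clone 4, 2.34% in clone 8 and 4.49% in clone E93. Clone B52 was above all of them, 2.62-fold over clone 3 (exact interval of the ratio 2.53 to 2.72). On Cast it had 27.7% (6540 reads) in clone B52, 2.27% in clone 3, 0.011% in clone 4 (2 reads), 0.041% in clone 8 and 21.9% in clone E93. The Cast allele of Igkv3-7 was therefore high in clones B52 and E93 and low in the other 3, and the fold over clone E93 was 1.26 (1.21 to 1.32). As a percent of the library the order turned, with 9.46% in clone B52 and 10.1% in clone E93.

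Igkv3-12, the segment of the family farthest from the J segments, ranked next to Igkv3-7 on both alleles. On B6 it had 11.1% (5061 reads) in clone B52, 5.46% in clone 3, 1.08% in clone 4, 2.06% in clone 8 and 1.93% in clone E93. On Cast it had 12.9% (3041 reads) in clone B52, 6.04% in clone 3, 0.044% in clone 4, 0.072% in clone 8 and 4.49% in clone E93. It was the one segment at least 2-fold over every other clone on both alleles, 2.04-fold on B6 and 2.13-fold on Cast over clone 3. As a percent of all reads of the library, the fold was 2.62 on B6 but 1.49 on Cast, where the segment was then not called.

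Among the 111 segments found in the annotation, Igkv3-7 and Igkv3-12 are each other's closest relatives, with 96.8% identity over the V exon. In the B6 sequence they differ at 10 of the 310 bases of this exon, and 8 of these positions lie in its last 150 bases. The leader exon and the Cast sequence were not compared. The stretch is shown because it holds most of the differences in the exon between both leading segments, with the differing positions in capitals, for chr6:70607887-70608036 and chr6:70518700-70518849 on the plus strand.
Igkv3-7: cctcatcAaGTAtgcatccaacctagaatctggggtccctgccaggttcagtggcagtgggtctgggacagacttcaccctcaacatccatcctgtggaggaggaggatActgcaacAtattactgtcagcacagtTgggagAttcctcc
Igkv3-12: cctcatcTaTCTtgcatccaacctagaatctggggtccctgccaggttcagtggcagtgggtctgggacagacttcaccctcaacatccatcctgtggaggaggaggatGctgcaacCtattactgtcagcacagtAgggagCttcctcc

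Igkv3-2 ranked after both on B6, with 9.73% (4425 reads) in clone B52, 3.32% in clone 3, 1.66% in clone 4, 1.14% in clone 8 and 8.52% in clone E93. Clones B52 and E93 were both high, and clone B52 was 1.14-fold above clone E93 (1.08 to 1.21). On Cast it was close to absent, with 9 reads in clone B52 and 0 to 45 reads in the other clones. For Igkv3-4, clone E93 was above clone B52 on both alleles. Its B6 share of the repertoire was 3.38% in clone B52 and 4.27% in clone E93, and its Cast share 1.57% and 1.90%. Igkv3-1, the segment next to the J segments, had 1.19% on B6 in clone B52 against 0.095 to 0.750% in the other clones, and 2.60% on Cast against 0.054 to 1.66%. Clone B52 was highest on both alleles, by 1.58-fold and 1.57-fold over the next clone. Igkv3-3 had 0.827% on B6 in clone B52 against 0.063 to 0.484%, and Igkv3-10 had 0.328% against 0.054 to 0.299%.

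The remaining members gave few reads. Igkv3-5 had 0 B6 reads in clones B52, 3 and E93, 27 in clone 4 and 105 in clone 8. It is 98.1% identical to Igkv3-10, so reads of this pair could be assigned to either. Igkv3-9 had 0 reads in clone B52 on either allele and at most 2 in any clone. Igkv3-3, Igkv3-5, Igkv3-9 and Igkv3-10 had 0 Cast reads in all 5 clones, and also in the pool and the second library of clone 4. In clone B52 this allows up to 0.0127% of the Cast reads for each. Whether reads of these segments can be counted on Cast at all was not tested.

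**Figure D1:**
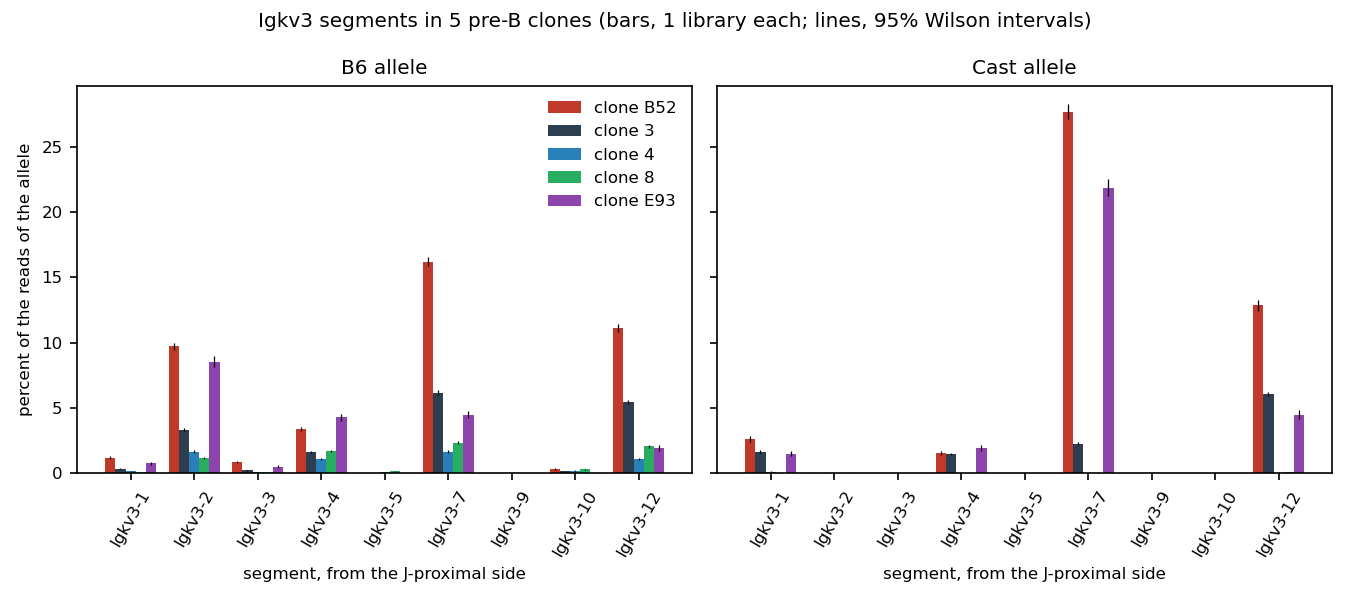
Percent of the reads of the B6 allele (left) and of the Cast allele (right) on each Igkv3 segment, in order from the J-proximal side. Bars are single libraries of clones B52, 3, 4, 8 and E93, and lines are 95% Wilson intervals. The bars of clone B52 stand highest at Igkv3-7 on B6 (16.2%) and Cast (27.7%) and at Igkv3-12 (11.1% and 12.9%).

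Within the family, the order of the members differed between alleles. Of the Igkv3 reads of clone B52, Igkv3-7 took 37.9% on B6 and 61.8% on Cast, Igkv3-12 26.0% and 28.8%, and Igkv3-2 22.7% and 0.1%. Clone E93 had 73.5% of its Cast Igkv3 reads on Igkv3-7 and 41.6% of its B6 reads on Igkv3-2. Clone 3 was closest to clone B52 on B6, with 35.8% on Igkv3-7 and 31.6% on Igkv3-12, while on Cast 52.6% of its Igkv3 reads were on Igkv3-12.

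By the rule used here, a segment was called when its percent of the allele in clone B52 lay at least 2-fold beyond the range of the other 4 clones. Segments needed 20 reads on the allele over the 5 clones, and counts under 3 were set to 3. On B6, 2 of 99 segments (2.02%) were called higher and 17 (17.2%) lower. On Cast, 2 of 80 (2.5%) were called higher and 8 (10%) lower. The higher ones were Igkv3-7 and Igkv3-12 on B6, and Igkv3-12 and Igkv4-79 on Cast. The same rule applied to each of the other clones in turn gave 1 to 7 higher and 1 to 8 lower segments on B6, and 0 to 4 higher and 2 to 16 lower on Cast. The 17 lower segments of clone B52 on B6 were thus more than in any other clone, and the 8 on Cast were fewer than the 16 of clone 8. Which clones were compared mattered for the counts. Against clones 3 and E93 alone, 10 were higher and 27 lower on B6, and 2 higher and 16 lower on Cast. Without clone E93, 9 were higher and 25 lower on B6, and 5 higher and 18 lower on Cast, and without clone 3, 4 were higher on Cast. Igkv3-1, Igkv3-2, Igkv3-3 and Igkv3-4 were among the 9 higher on B6 without clone E93, and Igkv3-7 among the 5 on Cast. Counted without a fold, clone B52 was outside the range of the other clones at 16 segments above and 39 below on B6, and at 9 above and 29 below on Cast.

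The size of the Igkv3 share lowers the percent of every other segment, so the count of lower segments depended on the scaling. Over the tested segments, the median log2 ratio of clone B52 to the median of the other clones was -0.75 on B6 and -0.84 on Cast. Scaled without the Igkv3 family, the medians were -0.20 and -0.32. With that scaling, 7 of the 17 lower segments on B6 and 6 of the 8 on Cast were called again, and no others were called lower. Median-of-ratios size factors gave 6 higher and 6 lower on B6, and 5 higher and 5 lower on Cast. The 7 B6 segments were Igkv1-110, Igkv1-122, Igkv2-109, Igkv4-53, Igkv8-26, Igkv12-38 and Igkv14-111. The 6 Cast segments were Igkv1-132, Igkv2-109, Igkv2-116, Igkv11-125, Igkv12-89 and Igkv14-100.

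Igkv4-79 was the one called segment of the middle of the locus that was higher in clone B52, and only on Cast. It had 6.28% of the Cast reads (1485 reads) in clone B52, 0.225% in clone 3, 0.170% in clone 4, 0.559% in clone 8 and 1.91% in clone E93. Clone B52 was 3.28-fold above clone E93 (2.90 to 3.72), the largest fold among the segments called higher. On B6 the same segment had 0.539% in clone B52, within the 0.427 to 1.01% of the other clones. Igkv4-79 lies at chr6:69042972-69043505 on the minus strand, 1679 kb from Igkj1. In the pool it had 0.274% on Cast.

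Igkv16-104 lay above the other clones on both alleles by less than 2-fold. On Cast it had 3.07% in clone B52, 1.71% in clone 3, 0.389% in clone 4, 0.844% in clone 8 and 1.16% in clone E93, and was among the 5 leading segments of that allele. On B6 it had 2.30% in clone B52 against 0.199 to 1.35%. Scaled without Igkv3, it was called higher on both alleles, together with Igkv10-95 on B6 and Igkv4-79 and Igkv4-73 on Cast. Igkv10-95 had 2.82% of the B6 reads in clone B52, against 0.548 to 1.44% in the other clones.

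The other abundant segments of clone B52 did not stand 2-fold apart. Igkv2-137, the most distal segment of the locus, followed the leading Igkv3 segments on Cast with 8.74% in clone B52, 14.1% in clone 3, 14.4% in clone 4, 12.8% in clone 8 and 6.73% in clone E93. It led the Cast repertoire in clones 3, 4 and 8, where clone B52 and clone E93 had Igkv3-7 first. On B6, Igkv4-57 followed the leading Igkv3 segments with 4.69% in clone B52, against 1.83 to 4.20% in the other clones. Igkv19-93 had 4.37%, within the 2.76 to 5.14% of the other clones.

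**Figure D2:**
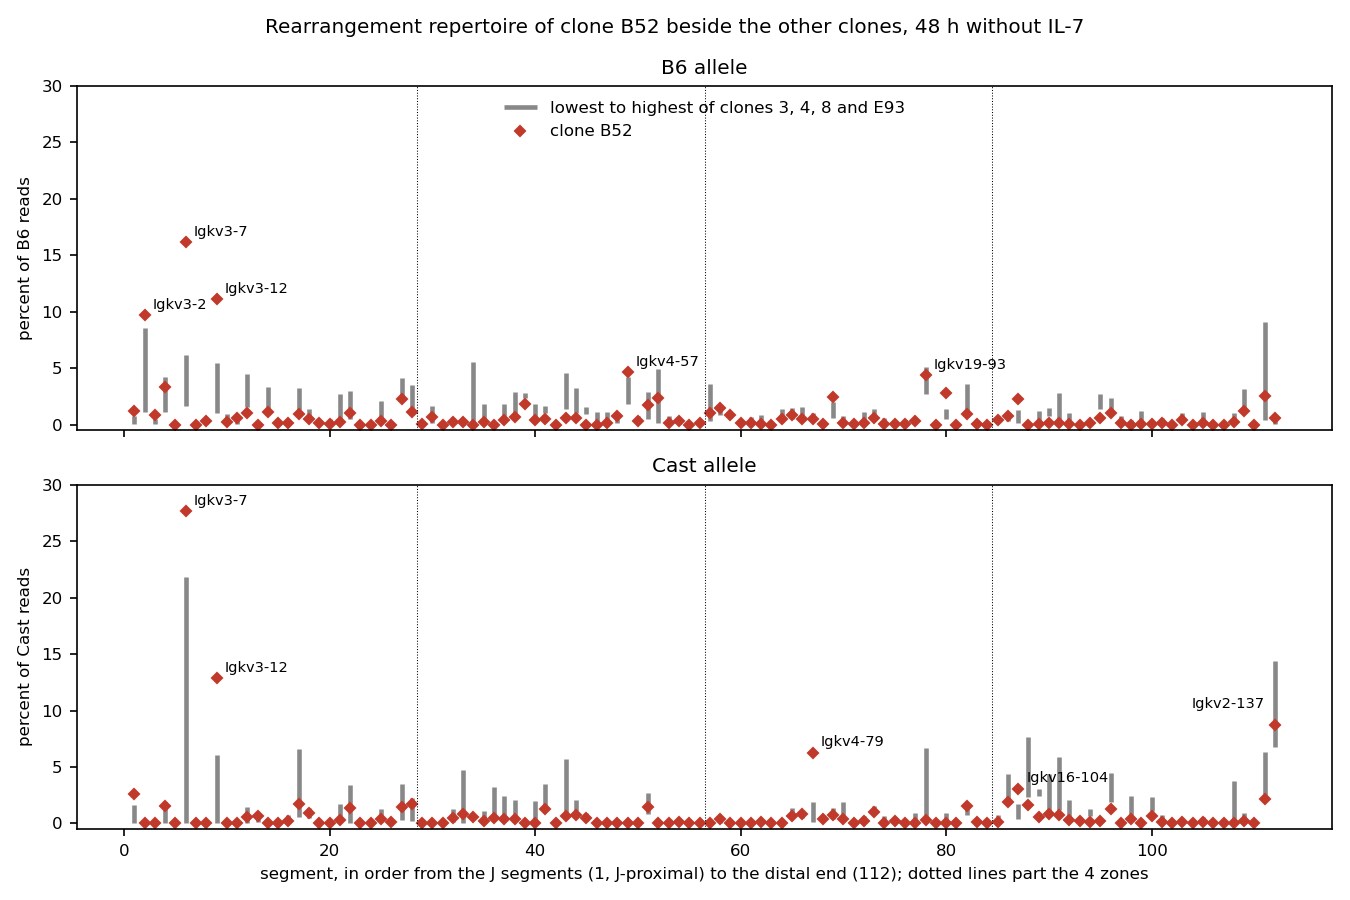
Percent of the reads of the B6 allele (top) and the Cast allele (bottom) on each of the 112 V segments, in order from the J segments to the distal end. Diamonds are clone B52, grey bars run from the lowest to the highest of clones 3, 4, 8 and E93, and dotted lines part the 4 zones of 28 segments. Leaving out segments under 20 reads in all, the diamonds stand 2-fold or more above the bars at Igkv3-7 (16.2%) and Igkv3-12 (11.1%) on B6 and at Igkv3-12 (12.9%) and Igkv4-79 (6.28%) on Cast.

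Among the segments that were lower on B6, Igkv4-53 stood out by size. It had 10 B6 reads in clone B52 (0.022%), against 1.18% in clone 3, 1.57% in clone 4, 0.946% in clone 8 and 1.45% in clone E93. The lowest other clone was 43.0-fold above clone B52 (23.3 to 90.1). On Cast, Igkv4-53 had 0.465% in clone B52, within the 0.186 to 0.957% of the other clones. Igkv12-38 had 2 B6 reads in clone B52, 59 in clone 3, 78 in clone 4, 76 in clone 8 and 1018 in clone E93. Clone 3, the lowest of these, was 15.8-fold above clone B52 by the reads as counted, with a wide interval (4.19 to 134), and 10.5-fold with the 2 reads set to 3. On Cast, Igkv12-38 had 0.571% in clone B52, within the 0.498 to 0.793% of the other clones. These were differences of the B6 allele, whereas the Cast copies of both segments were read at a level found in the other clones.

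In all, 3 segments were called lower on both alleles. Igkv2-109 had 0.108% of the B6 reads in clone B52 against 0.380 to 1.18% in the other clones, and 0.575% of the Cast reads against 2.42 to 3.09%. Igkv2-116, a pseudogene, had 0.119% on B6 against 0.255 to 0.424%, and 0.161% on Cast against 0.661 to 1.25%. Igkv1-99 had 0 B6 reads in clone B52 against 12 to 241 reads, at least 2.43-fold lower than clone 8 when 3 reads are taken as the limit of this library. Its Cast reads were 8, or 0.034%, against 0.077 to 0.255%. The ratio of the lowest other clone to clone B52 was 2.27, with a counting interval (0.887 to 6.23) that does not part it from 1.

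Several Igkv1 segments of the distal zone were low on B6. Igkv1-110 had 0.163% in clone B52 against 0.750 to 1.48% (4.61-fold below the lowest, 3.45 to 6.20), and Igkv1-117 had 0.633% against 1.35 to 2.69%. Igkv1-122 had 3 reads against 16 to 351, with a ratio of 3.24 to the lowest other clone (0.928 to 17.4). On Cast, Igkv1-122 had 0.389% against 0.611 to 2.41% and was not called. Igkv14-111 had 0.128% on B6 against 0.440 to 2.77%, and Igkv8-26, which lies near the J segments, had 2 reads against 7 to 48 (ratio 8.65, 1.65 to 85.3, or 5.77 with the 2 reads set to 3). The others were Igkv5-39, Igkv5-48, Igkv9-129, Igkv12-41 and Igkv13-84, at 2.01 to 2.51 times below the lowest other clone, and Igkv1-115 and Igkv4-74. For Igkv1-115 and Igkv4-74, clone B52 and clone E93 both had at most 2 reads, so that these 2 calls follow from the depth of both libraries, and 15 calls remain without them.

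On Cast, Igkv1-132 had 7 reads (0.030%) in clone B52, 0.119% in clone 3, 0.153% in clone 4, 0.163% in clone 8 and 3.78% in clone E93. Clone B52 was lowest and clone E93 high above the rest. Igkv12-89 had 0.063% against 0.261 to 0.638%, Igkv14-100 0.085% against 0.277 to 0.761% and Igkv11-125 0.097% against 0.343 to 0.712%. Igkv4-63 had 2 reads against 12 to 56, with a ratio of 3.48 to the lowest clone that its counting interval (0.788 to 31.8) does not part from 1.

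**Figure D3:**
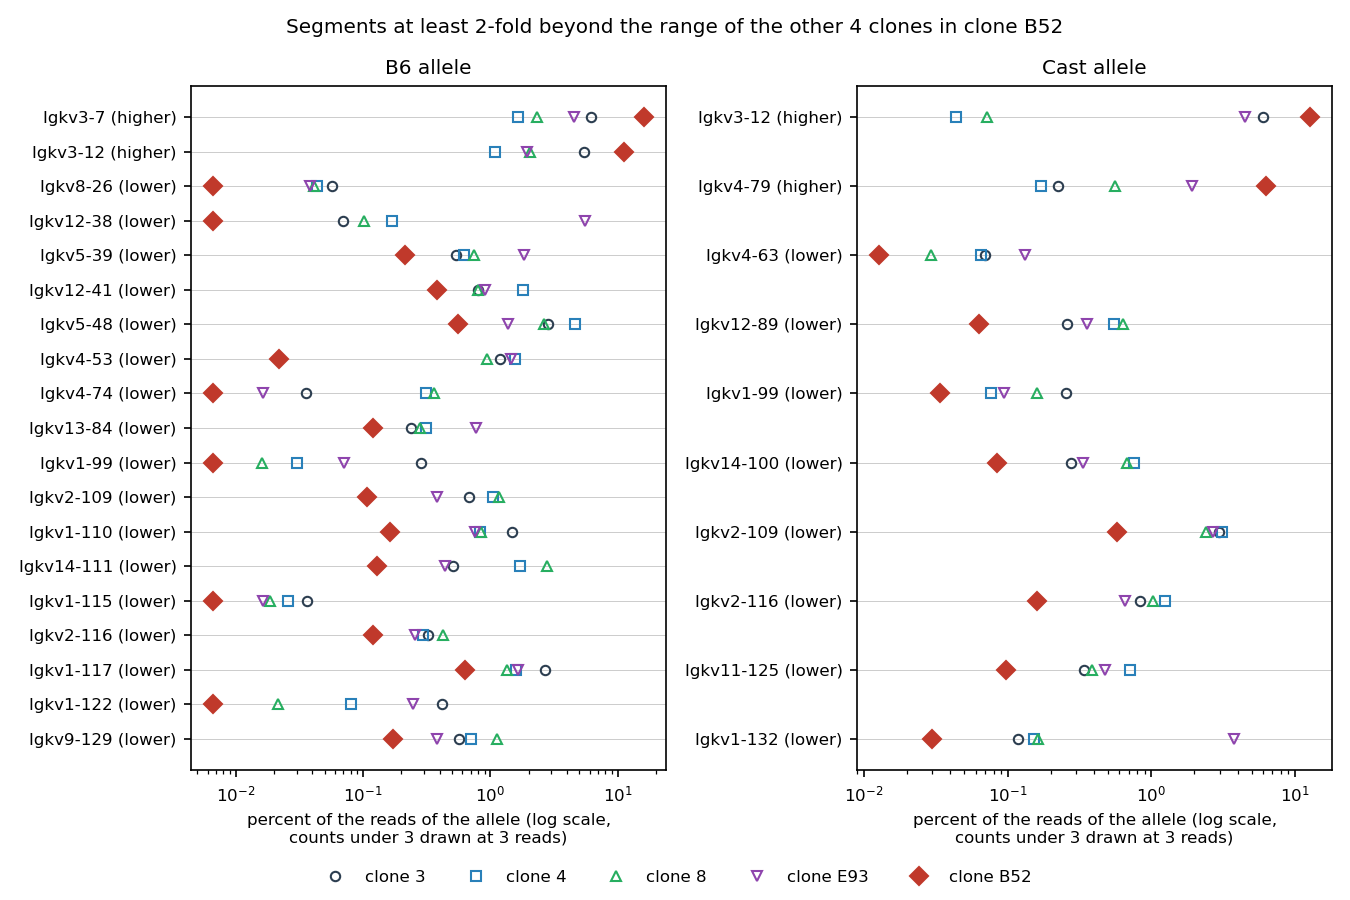
Percent of the reads of the allele (log axis, counts under 3 drawn at 3 reads) for the segments called higher or lower in clone B52, with 1 point for each clone. Filled diamonds are clone B52 and open symbols the other 4 clones. On B6 the 2 higher segments are Igkv3-7 and Igkv3-12 and the widest gap to the left is that of Igkv4-53, at 0.022% against 0.946% in the nearest clone.

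For position, the segments were put in order of the number in their name, which runs along the locus but for 1 pair of neighbours (Igkv4-59 and Igkv4-60), and divided into 4 zones of 28 counted segments each, from the J-proximal zone to the distal zone. Of the 17 segments lower on B6, 8 were among the 22 tested segments of the distal zone, 3 of 27 were in zone 3, 5 of 25 in zone 2 and 1 of 25 in the J-proximal zone. On Cast, 5 of the 8 were in the distal zone, where 24 segments were tested. By family, 5 of the 17 on B6 were Igkv1 segments, of 9 tested, and 2 were Igkv4 segments, of 30 tested. By RSS, 1 of the 17 lower segments on B6 and 0 of the 8 on Cast had all 16 bases, against 35 of the 99 and 22 of the 80 tested. All of the higher segments, 2 on each allele, had all 16.

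The ends of the locus differed accordingly. The J-proximal zone held 53.0% of the B6 reads of clone B52 (52.6 to 53.5), against 41.4% in clone 3, 30.4% in clone 4, 25.6% in clone 8 and 37.6% in clone E93. On Cast it held 54.4% (53.7 to 55.0), against 34.3% in clone 3, 9.29% in clone 4, 2.58% in clone 8 and 45.1% in clone E93. Clone B52 was the highest on both alleles by this measure. As a percent of all reads of the library, the zone had 18.6% on Cast in clone B52 and 20.9% in clone E93. The distal zone held 11.3% of the B6 reads of clone B52, against 24.9% in clone 3, 15.6% in clone 4, 17.1% in clone 8 and 22.0% in clone E93. On Cast it held 23.8%, against 45.0% in clone 3, 56.1% in clone 4, 48.3% in clone 8 and 34.9% in clone E93. Here clone B52 was the lowest on both alleles. Of the reads outside Igkv3, however, its distal zone had 19.8% on B6, within the 16.5 to 30.1% of the other clones. On Cast it had 43.1%, below their 48.4 to 56.2%. The total of these Cast reads holds Igkv4-79, with 11.4% in clone B52 against 0.170 to 2.72% in the other clones. That segment lies outside the distal zone and so lowers this 43.1%. The distal share with both Igkv3 and Igkv4-79 taken out was not computed.

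Without the Igkv3 family, the J-proximal end of clone B52 was no longer high. The 19 other segments of that zone held 10.2% of its B6 reads, below the 17.1 to 24.4% of the other clones, and 9.65% of its Cast reads, within the 2.40 to 22.8% of the other clones. Rescaled to the reads outside Igkv3, the J-proximal zone had 17.9% on B6, below the 19.2 to 29.1% of the other clones. The high J-proximal share of clone B52 was thus that of the Igkv3 family, and its neighbours in the same part of the locus did not share it. On the same scale, zone 3, in the middle of the locus, was above the other clones on both alleles. It had 32.2% of the B6 reads outside Igkv3, against 17.04 to 28.98%, and 24.6% of the Cast reads, against 7.99 to 20.2%. Igkv4-79 lies in this zone and alone was 11.4% of those Cast reads, against 0.170 to 2.72% in the other clones. The Cast excess of the zone thus depends on that segment.

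**Figure D4:**
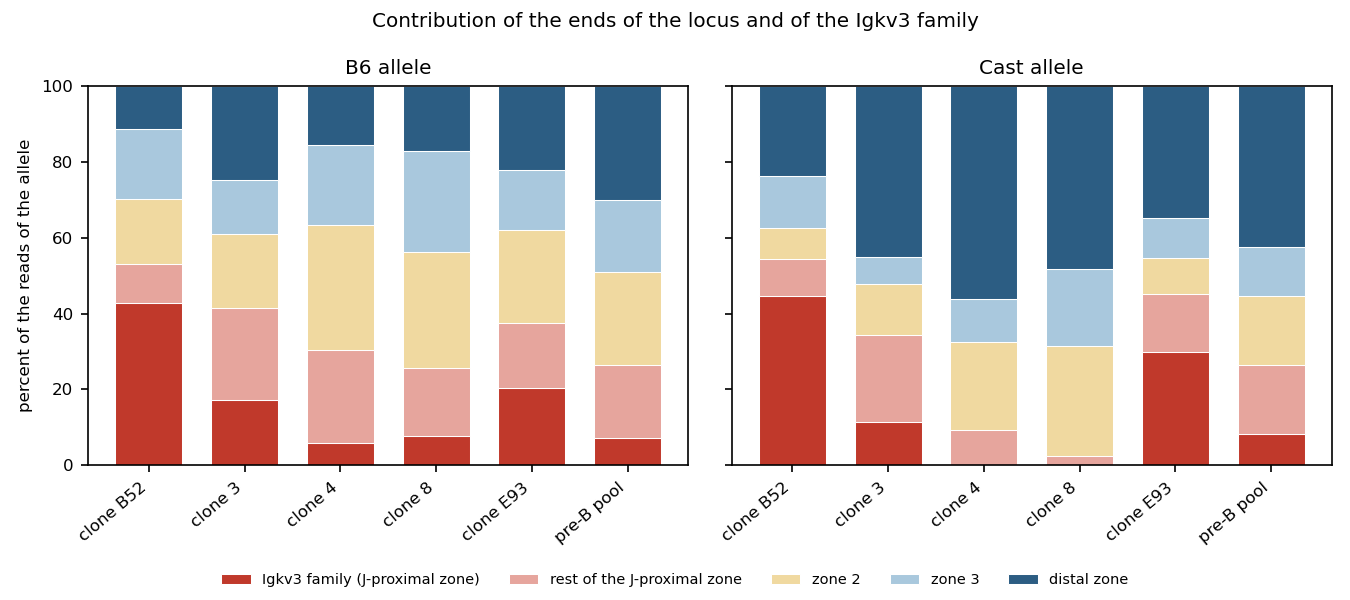
Percent of the reads of the B6 allele (left) and of the Cast allele (right) that fell on the Igkv3 family, the rest of the J-proximal zone, and the other 3 zones of the locus, as stacked bars that add up to 100, in 5 clones and the pre-B pool. The Igkv3 part of clone B52 is the tallest on both alleles (42.8% and 44.7%) and its distal zone the smallest (11.3% and 23.8%).

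Of the 14 families with at least 2 segments, Igkv3 was the one family above the other clones on B6, 10 were below all of them and 3 were within their range. On Cast, Igkv3 and Igkv4 were above, the latter through Igkv4-79, 8 were below and 4 within. Igkv1 had 5.38% of the B6 reads in clone B52 against 6.32 to 17.5%, and 5.19% of the Cast reads against 6.47 to 14.5%. Igkv14 had 0.51% against 0.92 to 3.33% on B6 and 0.89% against 1.55 to 6.61% on Cast. Igkv5 had 2.12% on B6 against 4.42 to 10.3%, but on Cast, with 2.08%, it lay within the range (1.08 to 15.4%). Igkv4, the largest family, had 20.7% on B6, within the 12.2 to 35.1% of the other clones. Its 12.9% on Cast was above the 7.17 to 10.4% of the other clones, but not above the 13.6% of the second library of clone 4. Igkv4-79 gave 48.9% of the Cast reads of the family (1485 of 3039), and the rest of the family had 6.57% of the Cast reads, below the 7.00 to 9.88% of the other clones. With the reads of Igkv4-79 taken out of the total as well, it had 7.01%, level with the lowest other clone (7.01 to 9.93%). With Igkv3 also taken out, it had 13.4%, above the 7.02 to 12.0% of the other clones. As a percent of the library, Igkv4 on Cast was 4.40% in clone B52 and 4.68% in clone E93. Rescaled to the reads outside Igkv3, fewer families stood apart. On B6, 1 of the 13 other families was then above the other clones (Igkv10), 6 were below and 6 within. On Cast 2 were above (Igkv4 and Igkv10), 4 below and 7 within. The Cast lead of Igkv10 was narrow, with 2.91% in clone B52 against 0.880 to 2.63% in the other clones. It was not above the second library of clone 4, where Igkv10 had 3.96% and Igkv3 0.08% of all Cast reads. Igkv14 was below on both alleles. Igkv12 and Igkv11 were too, but the interval of Igkv12 on Cast (5.19%, 4.82 to 5.58) held the lowest other clone (5.22%), as did that of Igkv11 on B6 (0.211%, 0.162 to 0.275, against 0.219%). Igkv1 was within the range on both, with 9.41% on B6 (6.85 to 21.2% in the other clones) and 9.39% on Cast (6.48 to 20.7%).

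Segments on the plus strand, which join by deletion, held 59.4% of the B6 reads and 69.8% of the Cast reads of clone B52, above the other clones (28.1 to 50.6% and 49.5 to 66.8%). As a percent of the library, the plus strand on Cast had 23.9% in clone B52, less than in clone 3 (28.7%) and clone E93 (31.0%). Of the reads outside Igkv3, the plus strand had 29.1% on B6, within the 22.4 to 40.3% of the other clones. On Cast it had 45.4%, below their 49.4 to 57.1%. The minus-strand segment Igkv4-79 was 11.4% of these Cast reads in clone B52, against 0.170 to 2.72% in the other clones. The low plus-strand share on Cast thus depends on that segment. Segments with all 16 RSS bases held 68.4% of the B6 reads and 68.4% of the Cast reads of clone B52. The other clones had 33.6 to 42.0% on B6 and 23.4 to 47.0% on Cast. Of the reads outside Igkv3, segments with all 16 bases held 44.9% on B6, against 19.8 to 37.0% in the other clones, and 42.8% on Cast, against 23.2 to 28.6%. Clone B52 was thus the highest on both alleles with Igkv3 and, on this scale, without it. As a percent of all reads of the allele, these segments outside Igkv3 had 25.7% on B6 and 23.6% on Cast. Both values lay within the other clones (16.4 to 34.1% and 17.2 to 28.5%).

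The repertoire of clone B52 was the most concentrated of the 5 clones on both alleles. The effective number of segments (the exponential of the Shannon entropy, which is the number of equally used segments that would give the same spread) was 32.8 on B6, against 50.9 in clone 3, 57.8 in clone 4, 58.0 in clone 8 and 48.5 in clone E93. On Cast it was 21.1, against 38.7 in clone 3, 35.0 in clone 4, 33.6 in clone 8 and 31.1 in clone E93. The 3 leading segments held 37.1% of the B6 reads and 49.3% of the Cast reads of clone B52, against 13.6 to 23.1% and 25.6 to 33.3% in the other clones. Without Igkv3, the effective number was 45.2 on B6, below the 47.7 to 53.0 of the other clones by a smaller margin. It was not below the second library of clone 4, which had 42.1 on B6. On Cast, clone B52 then had 33.25, just below the range of the other clones (33.34 to 39.3).

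The Bray-Curtis dissimilarity, which is 0 for equal and 1 for disjoint repertoires, was lowest between clone B52 and clone E93 on both alleles. On B6 it was 0.370 to clone E93, 0.404 to clone 3, 0.482 to clone 8 and 0.483 to clone 4. On Cast it was 0.272 to clone E93, 0.433 to clone 3, 0.577 to clone 4 and 0.617 to clone 8. Pairs of the other clones ranged from 0.212 to 0.454 on B6 and 0.203 to 0.573 on Cast, and the second library of clone 4 was 0.242 and 0.305 from the first. The net gain of Igkv3 was 60.2 to 76.2% of all that clone B52 gained over each other clone on B6, and 55.1 to 77.2% on Cast. Without Igkv3, the dissimilarity was 0.341 to 0.369 on B6 and 0.280 to 0.429 on Cast, and clone E93 was no longer the nearest. It was then at 0.345 on B6, where clone 4 was nearest at 0.341, and at 0.282 on Cast, where clone 3 was nearest at 0.280.

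The allelic ratio of each segment, its B6 reads as a percent of its reads, set clone B52 apart at few segments. With 10 reads in all 5 clones, 93 segments could be compared, and clone B52 was within the range of the other clones at 68, above it at 15 and below it at 10. At 20 points beyond the range, 0 of 93 segments (0%) were above and 1 (1.08%), Igkv4-53, was below. In clone B52, the B6 allele had 8.33% of the 120 reads of this segment (4.59 to 14.7), against 56.5% in clone 3, 95.5% in clone 4, 89.3% in clone 8 and 70.0% in clone E93. All 4 other clones had most reads of this segment on B6, and clone B52 had most on Cast. The same rule gave 0 to 3 segments above and 0 to 5 below in the other clones. With any 1 of the other clones left out, 1 or 2 segments were above, and without clone E93, Igkv3-7 and Igkv4-79 joined Igkv4-53 below. Against clones 3 and E93 alone, 8 were above and 1 below.

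Smaller distances below the range were found at Igkv4-79, with 14.2% on B6 in clone B52 against 28.1 to 89.0%, and at Igkv12-38, with 1.46% against 12.8 to 89.0%. For Igkv4-79 the Cast reads were high, and for Igkv4-53 and Igkv12-38 the B6 reads were low. Igkv2-112 followed with 30.8% against 37.8 to 52.4%, then Igkv1-117 with 83.5% against 87.4 to 96.9%. Igkv1-115 had 0 of 49 reads on B6, which allows up to 7.27% by the Wilson interval, against 2.53 to 66.7%.

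Above the range lay Igkv2-116, with 58.7% on B6 in clone B52 against 28.9 to 41.1%, and Igkv14-100, with 89.7% against 58.3 to 73.1%. Igkv4-91 had 100% of 25 reads on B6 (86.7 to 100) against 46.4 to 83.3%. Igkv11-125 had 70.5% against 43.2 to 58.0%, Igkv4-81 had 85.6% against 57.9 to 73.8% and Igkv12-89 had 70.0% against 31.7 to 61.2%. Igkv2-116, Igkv14-100, Igkv11-125 and Igkv12-89 were also called lower on Cast, so that their shift towards B6 went with few Cast reads.

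The Igkv3 family of clone B52 was read on both alleles, with no member outside the range of the other clones by 20 points. For Igkv3-7 the B6 share was 53.0% in clone B52, between the 19.2% of clone E93 and the 74.1% of clone 3. In clones 4 and 8 it was read on B6 almost alone (99.7% and 99.0%). Igkv3-12 had 62.5% in clone B52, 48.6% in clone 3, 98.4% in clone 4, 98.0% in clone 8 and 33.2% in clone E93. Igkv3-2 was almost all B6 in each clone (98.4 to 100%, and 99.8% in clone B52). Over all 93 segments, a B6 share over 80% was found at 38 in clone B52, under 20% at 10 and in between at 45. The other clones had 30 to 46, 7 to 16 and 39 to 51.

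**Figure D5:**
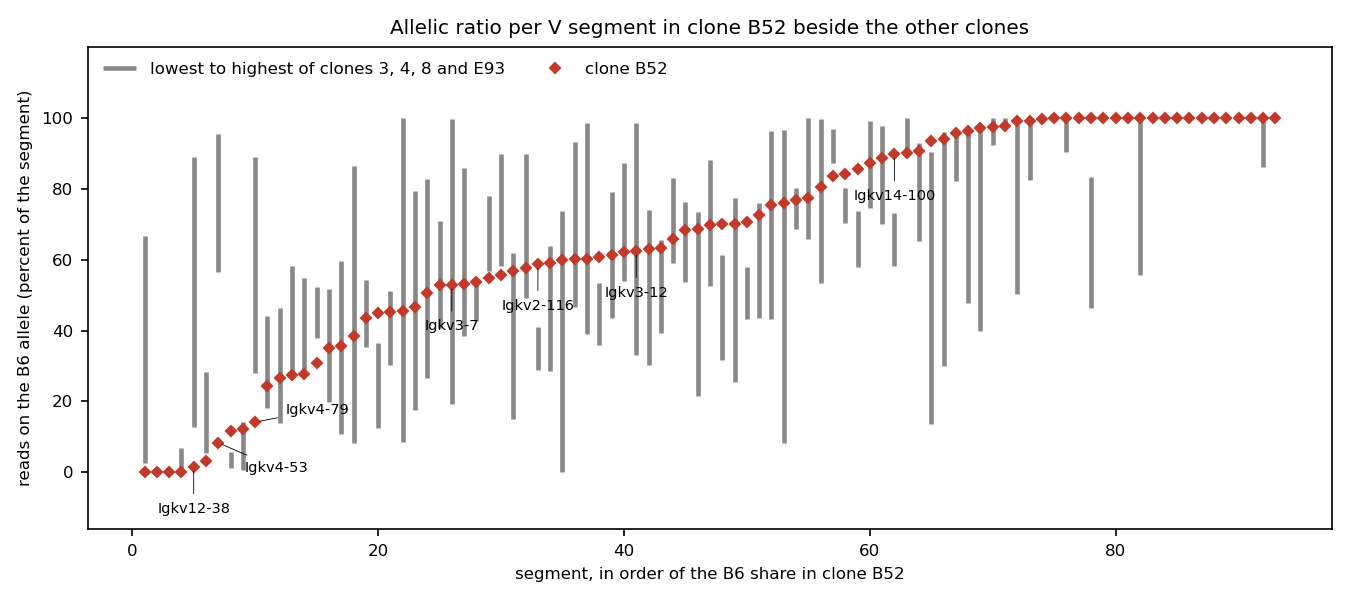
Reads on the B6 allele for the 93 segments compared (percent of the reads of the segment), ordered by the value in clone B52 (diamonds). Grey bars run from the lowest to the highest of clones 3, 4, 8 and E93. Most diamonds sit on their bars, and Igkv4-53 lies farthest below its bar (8.33% against 56.5% in the nearest clone).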

How the data were processed

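Rearranged Igκ RNA was converted to cDNA with a Cκ primer and enriched by PCR from a ligated adapter. Per the methods, the authors removed low-quality ends, mapped the read pairs with bowtie2 to a combined B6 and Cast sequence based on mm10, and made a count of reads for every V segment and allele with HTseq-count. The deposited tables hold these counts unchanged, for 112 segments on 2 alleles, and the reads have no molecular identifiers. The read length of each library and the program versions are not given in the sources used here.

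Counts were turned into percent of the allele, percent of the library and B6 share with Python 3.11.15, NumPy 2.4.6, SciPy 1.17.1 and pandas 2.3.3 (Biopython 1.88 for sequences, matplotlib 3.10.9 for figures). With 1 library per clone, no count model was fitted and no p-value is given. Segments were called at 2-fold beyond the range of the other 4 clones, with 20 reads over the 5 clones and counts under 3 set to 3, or at 20 points of B6 share with 10 reads in each clone. Intervals of shares are Wilson and those of ratios exact, at 95%. On simulated counts of 99 segments for B6, the rule called 10 of 10 raised and 10 of 10 lowered segments and 0 others. For Cast, with 81 segments, it called 10 of 10, 10 of 10 and 1 other. The simulated clones shared the same profile apart from these changes, which were larger than 2-fold, and had no spread but that of counting. The simulation therefore checks the code only and cannot give the rate of false calls between real libraries. Zones of the locus are 28 segments each, taken in order of the number in the segment name. Positions, strand and gene type were taken from the GENCODE M21 annotation of mm10, where 111 of 112 segments were found by name.

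Named segments are, for each allele, the 5 most abundant in clone B52, up to 6 called with the largest ratio to the nearest clone and 6 with the largest distance in B6 share in each direction, and all Igkv3 segments. Igkv10-95, Igkv4-73 and the other called segments were chosen once their values were known. The members and lists were chosen with earlier results of these data known. Alternatives added after seeing the data were scaling without Igkv3, the same scaling for families, strand and RSS, Igkv4 without Igkv4-79, comparison with clones 3 and E93 only, and the Igkv3 family without its leading segment or as a percent of the library.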

Additional observations from a re-analysis of the deposited data

Results flagged for a closer look

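Igkv4-53 had 8.33% of its reads on the B6 allele in clone B52, against 56.5 to 95.5% in the other 4 clones. Clone B52 lay on one side of an even ratio and all the other clones on the opposite side. With 1 library per clone the difference was not tested.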

How the results depend on the processing

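No paired analysis was possible because each clone has 1 library and no test was run. With each comparison clone left out in turn, the number of segments higher in clone B52 ranged from 2 to 9 on B6 (main value 2) and from 2 to 5 on Cast (2), lower from 17 to 25 on B6 (17) and 8 to 18 on Cast (8). Segments beyond the range in B6 share ranged from 1 to 2 above (0) and 1 to 3 below (1). Clone E93 moved these most, with 9 higher on B6 without it, except for segments above in B6 share. There, leaving out clone 4 or clone E93 gave 2 each. With only clones 3 and E93 there were 10 higher and 27 lower on B6, 16 lower on Cast and 8 above in B6 share. A fold of 1.5 gave 6 higher on B6, 5 higher and 15 lower on Cast, and a fold of 3 gave 0 higher and 7 lower on B6 and 1 higher on Cast. As percent of the library, 5 were higher on B6, and 1 higher and 15 lower on Cast. Size factors gave 6 higher and 6 lower on B6, and 5 and 5 on Cast. Without Igkv3, 7 were lower on B6, and without the leading segment 4 were higher on Cast. At 10 points of B6 share 5 were above and 3 below.

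The J-proximal zone (53.0% on B6, 54.4% on Cast) had 49.6% and 51.2% with ends set by fixed limits of the number in the segment's name, 54.2% and 56.3% with ends of 0.8 Mb, 43.9% and 36.9% without the leading segment, 54.3% and 56.2% with functional segments only, and stayed above the other clones in each of these. Without Igkv3 it had 17.9% (below the others) and 17.5% (within their range). The distal zone (11.3% and 23.8%) had 7.75% and 16.6%, 7.85% and 18.8%, and 13.5% and 33.0% under the first 3 of these, and 22.6% on Cast with functional segments only, each below the other clones. Without Igkv3 it had 19.8% (within their range) and 43.1% (below, with Igkv4-79 still in the Cast total). Igkv3 was 28.1% and 15.3% of the library, and 31.7% and 23.6% without its leading segment, still the highest. The effective number was 16.7 and 9.05 by the inverse Simpson index, the lowest of the clones. Rarefied to the smallest library, clone B52 had 91.5 segments on B6, again the lowest, and 78.5 on Cast, within the range. The B6 share of reads was 69.0% without the leading segment and 64.8% with segments read on both alleles. The causes were not tested, other than that fewer comparison clones or a lower fold can only add calls. Reads limit segments near 3 counts.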
